A study of Mus musculus with 3 samples.

Results

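Proximal T cell receptor signaling genes are the genes whose products receive, relay or restrain the first steps of the signal from the T cell receptor. The module held 34 named genes, and all 34 were among the 14811 genes of the deposited count table. The genes were chosen by name from their known roles, in 6 groups: 4 CD3 and zeta chains, 4 kinases, 8 adaptors, 6 enzymes, exchange factors and transcription factors, 4 surface regulators and 8 inhibitors. Their levels were compared between classes of T cells taken from mouse tumors and between the hashtag numbers within a class.

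Mice carried subcutaneous tumors of B16F10, a mouse melanoma line, and received, by tail vein on day 1, T cells of either kind: CD4+ cells marked by the allele CD45.1, or CD8+ cells marked by the allele CD45.2 of the same surface protein. Tumors of 10 mice were resected on day 11 and pooled. The CD45.1 cells were sorted into CD4+ and CD4+CD8+ populations, and the CD45.2 cells likewise into CD8+ and CD8+CD4+ populations, which makes 4. The treatment label is untreated for all 4, and age, sex and strain are not given in the sources used here. The populations were hashtagged, mixed in about equal numbers and run as 1 droplet library of about 6200 loaded cells, in which transcripts were counted from their 5′ ends as unique molecular identifiers (UMIs). The deposited annotation labels each cell with its hashtag (1 to 4) and its identity (Cd4 or Cd8). It sets some cells of either identity apart as Tdp, and each of these showed UMIs of Cd4 and of Cd8a. Nothing in the labels ties a hashtag number to a sorted population, so the numbers are parts of 1 pool and not replicates. There were therefore no replicate samples and no tests. Each interval given is a 95% interval for counting error only, and a gene was called higher or lower where the difference was at least 1.5-fold and its interval left out 1, among genes with at least 20 UMIs over both sides.

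Signaling starts when the receptor's CD3 and zeta chains, which have no enzyme activity of their own, are phosphorylated by the kinase Lck. Zap70 then docks on the phosphorylated chains and phosphorylates the adaptors LAT and SLP-76, on which phospholipase C gamma 1, exchange factors and further kinases assemble. Phosphatases, the kinase Csk, ubiquitin ligases and diacylglycerol kinases hold this relay in check, and CD5 and CD6 are surface proteins that tune it. CD4 and CD8 bring Lck to the receptor, so the same relay serves both lineages.

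The DNA before 4 members named in the comparisons below is shown. Cd5 and Rasgrp1 were higher in the Cd4 class, Fyn was higher in the Cd8 class, and Themis had the largest difference between cells with and without a Foxp3 UMI. The choice was also limited by what was available. Cd6 and Sh2d1a had no promoter entry, and the entries of Cblb and Txk lay wholly or mostly inside the annotated gene. Each stretch is the part of RefSeq's promoter entry (GRCm38.p6, the assembly behind the mm10 build) that lies outside the annotated gene, read 5′ to 3′ on the gene's strand. Cd5 is on the minus strand at chr19:10739027-10739224, Rasgrp1 on the minus strand at chr2:117342878-117343127, Fyn on the plus strand at chr10:39369549-39369742 and Themis on the plus strand at chr10:28668110-28668359. Capitals mark a RUNX motif, TGTGGT or TGCGGT on either strand, and an ETS motif, GGAAGT on either strand.
Cd5: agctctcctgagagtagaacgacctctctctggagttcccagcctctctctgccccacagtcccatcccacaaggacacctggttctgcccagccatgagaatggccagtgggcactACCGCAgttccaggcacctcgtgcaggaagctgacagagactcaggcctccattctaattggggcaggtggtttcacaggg
Rasgrp1: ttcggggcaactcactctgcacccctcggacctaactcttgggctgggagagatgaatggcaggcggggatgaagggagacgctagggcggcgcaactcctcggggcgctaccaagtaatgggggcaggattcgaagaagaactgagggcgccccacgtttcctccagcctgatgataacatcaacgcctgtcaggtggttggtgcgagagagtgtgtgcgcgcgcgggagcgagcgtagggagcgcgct
Fyn: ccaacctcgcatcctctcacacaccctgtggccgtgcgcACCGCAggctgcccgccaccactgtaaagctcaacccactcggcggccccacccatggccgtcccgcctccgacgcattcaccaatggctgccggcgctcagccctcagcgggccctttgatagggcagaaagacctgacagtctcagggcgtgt
Themis: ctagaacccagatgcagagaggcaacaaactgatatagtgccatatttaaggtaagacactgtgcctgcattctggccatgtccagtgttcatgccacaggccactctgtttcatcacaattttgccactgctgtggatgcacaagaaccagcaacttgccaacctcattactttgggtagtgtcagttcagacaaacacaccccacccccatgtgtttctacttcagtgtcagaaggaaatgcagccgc
The Cd5 and Fyn stretches each held 1 RUNX match and no ETS match, and the Rasgrp1 and Themis stretches held neither. The full Cd5 entry has an ETS match in its part inside the annotated gene, which is not shown. Of the 34 members, 26 matched a RefSeq promoter entry, with 38 entries in all, and each was searched over the 250 bases before the start. A RUNX match was in 7 of the 38 entries (18.4%), beside 18.6% of 32851 promoters. An ETS match was in 16 of 38 (42.1%), beside 19.7% of all promoters, and those entries belonged to Cd247, Cd3d, Cd3e, Cd5, Dgkz, Lck, Ptpn22, Ptpn6, Ptprc, Txk, Vav1 and Zap70. Some of these genes counted with more than 1 entry. The Ptprc entries overlap and share a match, so the entries are not independent. A match describes letters in the window and is not a measured binding site.

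A Cd3e UMI was found in 5253 of 5564 cells (94.4%), and the values below are from these cells, so Cd3e itself was used to choose them. They comprised 2395 cells of the Cd4 class (96.7% of it), 91 of the Cd4-identity Tdp class, 2455 of the Cd8 class (91.6% of it) and 312 of the Cd8-identity Tdp class. The median UMI count per cell was 3516, 4694, 4155 and 4988.5 in the same order. Cells with at least 2 UMIs of macrophage, B cell or melanoma markers, called cells with UMIs of other cell types below, made up 4.22% of the Cd4 class and 7.09% of the Cd8 class. Macrophage marker genes summed to between 37.8 and 765 CPM (counts per 1000000) over the 4 hashtag numbers of the Cd4 class and to between 81.6 and 1005 CPM in the Cd8 class, highest in number 1 of both.

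The module as a whole took nearly the same share of the transcripts in all 4 classes. Its members held 1.10% of the UMIs in the Cd4 class, 1.12% in Cd4-identity Tdp, 1.09% in the Cd8 class and 1.14% in Cd8-identity Tdp. With cells thinned to 2000 UMIs, the median cell had a UMI of 13 members in each class, with quartiles at 11 and 15. Cells with fewer UMIs were left out of all values at this depth. That kept 2202 of 2395 cells of the Cd4 class, 88 of 91 of Cd4-identity Tdp, 2343 of 2455 of the Cd8 class and 308 of 312 of Cd8-identity Tdp.

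Between the Cd8 and Cd4 classes, 4 members were higher in the Cd8 class (Sh2d1a, Txk, Fyn and Cblb) and 3 were lower (Cd5, Cd6 and Rasgrp1). These 7 of 34 members (20.6%) stood beside 13.0% of the 11453 genes tested, and beside 7.10% of the genes counted at least as deeply as the least counted member. The median log2 ratio of the members, on CPM plus 5, was 0.09, and that of all genes tested was -0.02. With cells lacking a Cd3e UMI included, the members' median was -0.01. The levels in the 4 hashtag numbers of one class lay wholly above those of the other for 18 members, 9 in each direction. Such separation held for 17.4% of all genes tested and for 28.3% of those counted as deeply as the members. Of the separated members not called, Sh2d2a, Prkcq, Ptpn6, Ptpn22, Csk and Dgkz were higher in the Cd8 class. Cd3g, Zap70, Lat, Fyb, Cd2 and Ubash3a were higher in the Cd4 class. The CD3 and zeta chains had folds of 1.06 (Cd3e), 1.18 (Cd3d), 0.93 (Cd3g) and 1.02 (Cd247), none called.

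**Figure D1:**
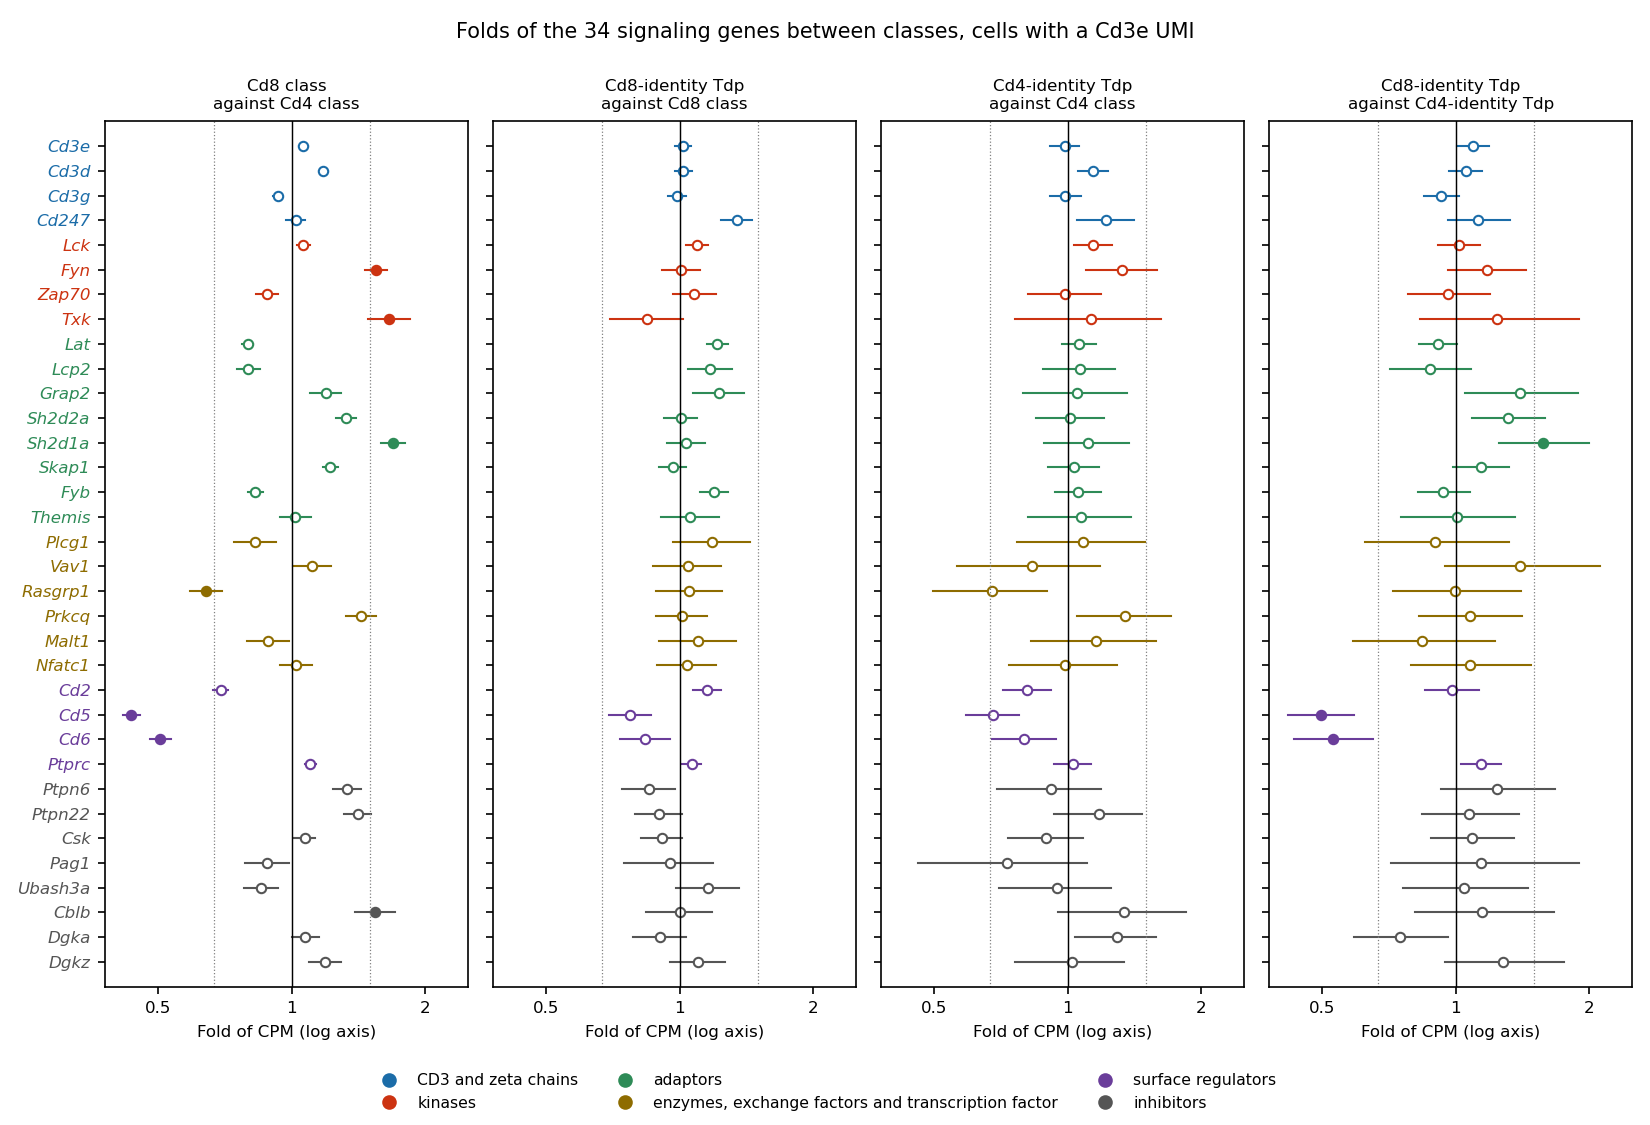
Ratio of CPM between classes (x axis, log scale) for the 34 members (y axis, coloured by role), in cells with a Cd3e UMI. Points are ratios, bars are 95% intervals for counting error, filled points are called, and dotted lines mark 1.5-fold either way; in the left panel 7 points are filled, with Cd5 farthest left at 2.30-fold lower.

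Among the surface regulators, Cd5 had the largest difference. CD5 is a scavenger-receptor family protein that dampens receptor signals. Its level in the Cd4 class was 589, 587, 523 and 551 CPM in hashtag numbers 1 to 4, and in the Cd8 class 295, 239, 244 and 252 CPM. Every number of the Cd4 class was above every number of the Cd8 class, and over all cells Cd5 was 2.30-fold lower in the Cd8 class (2.20 to 2.40). A Cd5 UMI was present in 79.7% of Cd4 class cells (78.0 to 81.3) and in 58.6% of Cd8 class cells (56.6 to 60.5). At 2000 UMIs per cell these shares were 64.3% and 37.0%.

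Cd6, a relative of Cd5, lies 50.3 kb from it on chromosome 19. Its level in the Cd4 class was 335, 344, 296 and 326 CPM in numbers 1 to 4, and in the Cd8 class 194, 163, 173 and 150 CPM. The ranges did not overlap, and Cd6 was 1.98-fold lower in the Cd8 class (1.87 to 2.09). Cd2, an adhesion and costimulatory receptor, did not reach the 1.5-fold needed for a call, with 403 CPM in the Cd8 class and 582 CPM in the Cd4 class, a fold of 0.69 (0.67 to 0.72). Ptprc, which encodes the CD45 phosphatase that activates Lck, had a fold of 1.10 (1.07 to 1.13).

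Among the kinases, Fyn and Txk were higher in the Cd8 class. Fyn is a Src-family kinase related to Lck. Its level was 220, 255, 261 and 269 CPM in numbers 1 to 4 of the Cd8 class and 167, 156, 156 and 176 CPM in the Cd4 class, 1.55-fold higher (1.46 to 1.64) with no overlap. Without Foxp3-positive cells, an alternative added after seeing the data, Fyn was no longer called. Txk is a Tec-family kinase, one of a family that acts on phospholipase C gamma 1. Its level was 53.2, 76.8, 91.8 and 82.3 CPM in the Cd8 class and 42.1, 59.1, 55.4 and 46.1 CPM in the Cd4 class, 1.65-fold higher (1.48 to 1.84). The Txk ranges overlapped, because number 1 of the Cd8 class lay below numbers 2 and 3 of the Cd4 class. Lck and Zap70 had folds of 1.06 (1.03 to 1.10) and 0.88 (0.83 to 0.93), so the pair of kinases at the head of the relay was not called.

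**Figure D2:**
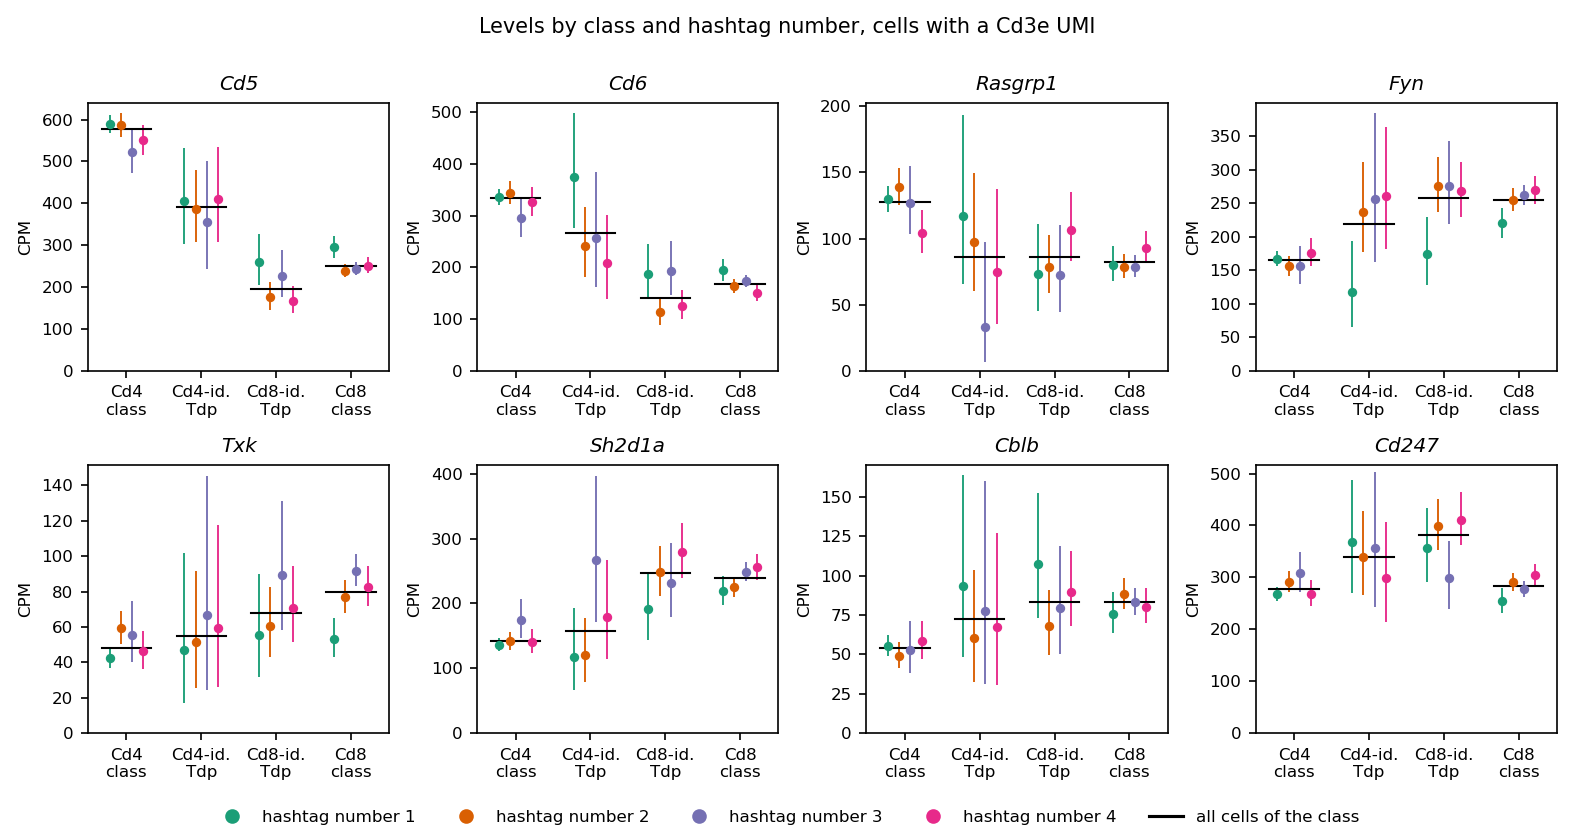
Level (CPM, y axis) of 8 members in each class (x axis) and hashtag number (coloured points), in cells with a Cd3e UMI; bars are 95% Poisson intervals and black lines are all cells of the class. Over all cells Cd5 stood at 578 CPM in the Cd4 class, 392 and 194 CPM in the Tdp classes of Cd4 and Cd8 identity, and 251 CPM in the Cd8 class.

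Of the adaptors, only Sh2d1a was called. It encodes SAP, which links SLAM-family receptors to Fyn. Its level was 219, 225, 249 and 255 CPM in numbers 1 to 4 of the Cd8 class and 136, 142, 175 and 141 CPM in the Cd4 class, 1.69-fold higher (1.59 to 1.80) with no overlap. Sh2d2a, which encodes the Lck-binding adaptor TSAd, had a fold of 1.33 (1.26 to 1.40) with no overlap between the classes. Lat, the membrane scaffold of the relay, and Lcp2, which encodes its partner SLP-76, had folds of 0.80 each, with intervals of 0.77 to 0.82 and 0.75 to 0.85. Grap2, which encodes the GADS adaptor that joins them, had a fold of 1.19 (1.10 to 1.29). The integrin-linked pair Skap1 and Fyb, which encodes ADAP, had folds of 1.22 and 0.83, and Themis, an adaptor required for thymic selection, had a fold of 1.02.

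Among the enzymes and exchange factors, Rasgrp1 was lower in the Cd8 class. It encodes a diacylglycerol-activated exchange factor that switches on Ras. Its level was 80.3, 78.8, 78.7 and 93.2 CPM in numbers 1 to 4 of the Cd8 class and 130, 139, 127 and 104 CPM in the Cd4 class, 1.56-fold lower (1.44 to 1.70) with no overlap. Without hashtag number 2 Rasgrp1 was under 1.5-fold. Prkcq, which encodes the diacylglycerol-activated protein kinase C theta, had a fold of 1.43 (1.33 to 1.55), below the threshold and with no overlap. It was called with cells thinned to 2000 UMIs. Among cells of 3000 to 8000 UMIs, an alternative added after seeing the data, it was called too. Plcg1, the phospholipase that makes diacylglycerol, had a fold of 0.83, the exchange factor Vav1 1.11, the protease Malt1 of the NF-kappaB branch 0.88 and the transcription factor Nfatc1 1.02.

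Among the inhibitors, Cblb was higher in the Cd8 class. It encodes an E3 ubiquitin ligase that raises the threshold for T cell activation. Its level was 75.8, 88.5, 83.2 and 80.4 CPM in numbers 1 to 4 of the Cd8 class and 55.3, 48.8, 52.9 and 58.4 CPM in the Cd4 class, 1.54-fold higher (1.39 to 1.71) with no overlap. As with Rasgrp1, leaving out number 2 brought Cblb under 1.5-fold. The phosphatase genes Ptpn22 and Ptpn6 had folds of 1.41 (1.32 to 1.51) and 1.33 (1.24 to 1.43), not called and with no overlap. Ptpn22 was called among cells of 3000 to 8000 UMIs. Csk, which phosphorylates the inhibitory tyrosine of Lck, had a fold of 1.07, and Pag1, its membrane anchor, 0.88. Ubash3a, which encodes a suppressor of receptor signaling, had a fold of 0.85, and the diacylglycerol kinases Dgka and Dgkz had folds of 1.07 and 1.19.

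With cells lacking a Cd3e UMI included, Fyn and Cblb were not called and Cd2 was called lower. All 7 calls remained when cells with UMIs of other cell types were left out. That exclusion did not cover NK-cell markers, which were higher in the Cd8 class, 7 of 7 called, with sums of 311 CPM there and 162 CPM in the Cd4 class. It also did not cover dendritic cell markers, which summed to 86.2 CPM in the Cd8 class and 40.8 CPM in the Cd4 class, 3 of 7 higher, or gamma delta T cell markers, at 4.69 against 31.4 CPM, 2 of 3 lower. None of these markers was at 0 in either class, and their part in the 7 calls was not tested.

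The other 64 genes of the pathway had 2 higher and 5 lower in the Cd8 class, a share of 10.9%. The highest was Lax1, an inhibitory adaptor, at 1.70-fold (83.3 against 49.0 CPM), and the other one called higher was Tec, a kinase of the same family as Txk, at 1.66-fold (13.8 against 8.29 CPM). Evl at 1.49-fold and Dusp2 at 1.45-fold were not called. The lowest was the costimulatory receptor Icos (115 against 299 CPM), followed by Trat1, a receptor-associated adaptor (23.0 against 54.5 CPM), and Nfkbia, an NF-kappaB inhibitor (259 against 547 CPM). Of 12 genes that receptor signals induce, Nr4a2 (38.5 against 12.2 CPM) and Egr2 (6.72 against 3.53 CPM) were higher in the Cd8 class, and Il2ra (19.4 against 126 CPM) and Tnfrsf9 (82.0 against 354 CPM) were lower.

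In Cd8-identity Tdp cells, which carried UMIs of both co-receptors, no member was called against the Cd8 class. This count of 0 of 34 stood beside 4.22% of the 10748 genes tested and 0.845% of those counted as deeply as the members. The largest difference was in Cd247, the zeta chain, with 357, 399, 300 and 411 CPM in numbers 1 to 4 of Cd8-identity Tdp and 254, 291, 278 and 304 CPM in the Cd8 class. Cd247 was 1.34-fold higher (1.24 to 1.46), and number 3 of the Tdp class lay below number 4 of the Cd8 class. The 3 CD3 chains had folds between 0.99 and 1.02. In the adaptors, Lat had a fold of 1.22 (1.15 to 1.28), Grap2 1.23 (1.07 to 1.40) and Fyb 1.20 (1.11 to 1.29). Cd5 had 260, 177, 227 and 168 CPM in numbers 1 to 4 of the Tdp class, 1.29-fold lower than the Cd8 class (1.16 to 1.44). The 6 enzymes, exchange factors and transcription factor had folds between 1.01 and 1.18, all with intervals that hold 1.

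Among cells of 3000 to 8000 UMIs, a restriction added after seeing the data because the Tdp class was the deeper one, Cd247 alone was called, at a log2 ratio of 0.60. With cells thinned to 2000 UMIs the Cd247 log2 ratio was 0.30 and it was not called, whereas Pag1 was. Droplets that may hold 2 cells were looked for by Trbv genes, taking those in which 2 such genes each had 2 or more UMIs. They were 20.6% of the Cd8-identity Tdp cells and 16.9% of the Cd8 class among cells with enough Trbv UMIs. Without them the Cd247 log2 ratio was 0.52 and Cd5 stood at -0.52, with no member called. None of the other 64 pathway genes was called, and of the 12 induced genes Nr4a1 (15.4 against 32.5 CPM) and Irf4 (3.20 against 7.93 CPM) were lower in the Tdp class.

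In Cd4-identity Tdp cells also, no member was called against the Cd4 class, beside 4.97% of the 10535 genes tested. The share among genes counted as deeply as the members was not computed for this comparison. With only 91 cells the intervals were wide. Rasgrp1 and Cd5 came closest. Cd5 had 406, 386, 356 and 410 CPM in numbers 1 to 4, all below the lowest number of the Cd4 class, and was 1.48-fold lower (1.29 to 1.69). Rasgrp1 was at 117, 97.7, 33.4 and 74.6 CPM, also 1.48-fold lower (1.11 to 2.01), and the level of number 3 came from 9 cells. Prkcq had a fold of 1.35 (1.05 to 1.71), Fyn 1.33 (1.10 to 1.59), Dgka 1.29 (1.04 to 1.59) and Cd247 1.22 (1.05 to 1.41). Cd6 and Cd2 had folds of 0.80 (0.67 to 0.94) and 0.81 (0.72 to 0.92).

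This comparison and that of the Cd8 class use the same Cd4 class cells and are not independent. Cells with UMIs of 2 Trbv genes were 47.4% of the Cd4-identity Tdp cells (36 of 76) and 15.6% of the Cd4 class (227 of 1451). Without these cells Cd5 was called lower. Macrophage markers summed to 65.3 CPM in these Tdp cells and to 464 CPM in the Cd4 class, with 6 of 9 measured markers lower. Without cells that carried UMIs of other cell types, Cd5 was again the only member called. As examples of the other pathway genes, Lax1 (77.6 against 49.0 CPM) was higher and Nfkbia (344 against 547 CPM) was lower. Of the induced genes Il2ra (54.7 against 126 CPM) and Tnfrsf9 (229 against 354 CPM) were lower.

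Between the Tdp classes, 3 of 34 members were called (8.82%), beside 7.32% of the 8102 genes tested. Here too, the share among genes counted as deeply as the members was not computed. Cd5 was 2.01-fold lower in Cd8-identity Tdp (1.70 to 2.39), Cd6 was 1.89-fold lower (1.53 to 2.31) and Sh2d1a was 1.57-fold higher. This comparison and that of the single classes share no cell. Both come from 1 library of 1 pool, so neither is a replicate of the other. Cd5, Cd6 and Sh2d1a were also among the 7 members called between the single classes. Their levels were 194 and 392 CPM for Cd5, 141 and 266 CPM for Cd6, and 247 and 157 CPM for Sh2d1a, in Cd8-identity and Cd4-identity Tdp respectively. Fyn and Txk, called between the single classes, had folds of 1.18 (0.96 to 1.44) and 1.24 (0.83 to 1.90), and Rasgrp1 had 1.00 (0.72 to 1.41). Without number 2, and with cells thinned to 2000 UMIs, Sh2d1a was not called. Among cells with enough Trbv UMIs, 47.4% in Cd4-identity Tdp and 20.6% in Cd8-identity Tdp had UMIs of 2 Trbv genes. Without such cells Cd5, Cd6 and Sh2d1a were still called, and no other member was. Of the induced genes Nr4a2 was higher in Cd8-identity Tdp (30.4 against 12.3 CPM), and Tnfrsf9 (70.3 against 229 CPM) and Il2ra (16.5 against 54.7 CPM) were lower. Macrophage markers were higher in Cd8-identity Tdp, at 405 against 65.3 CPM. Without cells carrying UMIs of other cell types, Cd5, Cd6 and Sh2d1a were still called, and Grap2 was called as well.

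Cell states within a class were compared by a UMI of a gene outside the module. A Foxp3 UMI, the mark of regulatory T cells, was present in 530 of 2395 Cd4 class cells (22.1%). In these cells Themis, Pag1 and Nfatc1 were lower and Cd2 was higher than in the 1865 Foxp3-negative cells. The 4 called members (11.8%) stood beside 17.5% of 10468 genes tested, and 26 of 34 members had a log2 ratio below 0, beside 5379 of the 10468. For comparisons of states or of hashtag numbers, the share called among genes counted as deeply as the members was not computed. Where it was computed, between classes, it was lower than the share of all genes tested. The median log2 ratio was -0.22 for the members and -0.01 for all genes tested, and with cells thinned to 2000 UMIs the members' median was -0.13. All 4 CD3 and zeta chains and all 8 adaptors lay below 0.

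Themis had the largest difference of any member in any comparison. Its level was 25.1, 32.0, 36.8 and 24.3 CPM in numbers 1 to 4 of the Foxp3-positive cells and 124, 119, 146 and 105 CPM in the Foxp3-negative cells. It was 4.44-fold lower (3.45 to 5.81), and the ranges lay far apart. At 2000 UMIs per cell, a Themis UMI was found in 5.10% of Foxp3-positive and 20.6% of Foxp3-negative cells. Cd2 had 880, 1019, 988 and 1074 CPM in Foxp3-positive cells and 488, 470, 490 and 449 CPM in the others, 1.99-fold higher (1.89 to 2.10) with no overlap.

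Pag1 was 1.70-fold lower in Foxp3-positive cells (1.35 to 2.17; 35.9 against 61.1 CPM), and its level of 55.2 CPM in number 3 lay inside the range of the Foxp3-negative cells. Nfatc1 was lower by just over the threshold, with a fold of 0.67 (0.56 to 0.79; 70.9 against 106 CPM), and was not called without cells carrying UMIs of other cell types, with cells lacking a Cd3e UMI included or with cells thinned to 2000 UMIs. Malt1 had a fold of 1.45 (1.22 to 1.71), the next largest above 1. Of the other pathway genes 6 were higher and 5 lower, led by Nfkbia (1072 against 396 CPM) and Icos (527 against 233 CPM) at the top and Evl, an actin regulator (34.2 against 113 CPM), at the bottom. Of the induced genes Tnfrsf9 was 11.4-fold, Il2ra 9.43-fold, Nr4a1 4.12-fold, Myc 2.11-fold and Nr4a3 1.74-fold higher, and Egr1 was lower (16.2 against 40.4 CPM). Macrophage markers summed to 627 CPM in Foxp3-positive cells and 418 CPM in the others. Themis, Cd2 and Pag1 were called also without cells carrying UMIs of other cell types.

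**Figure D3:**
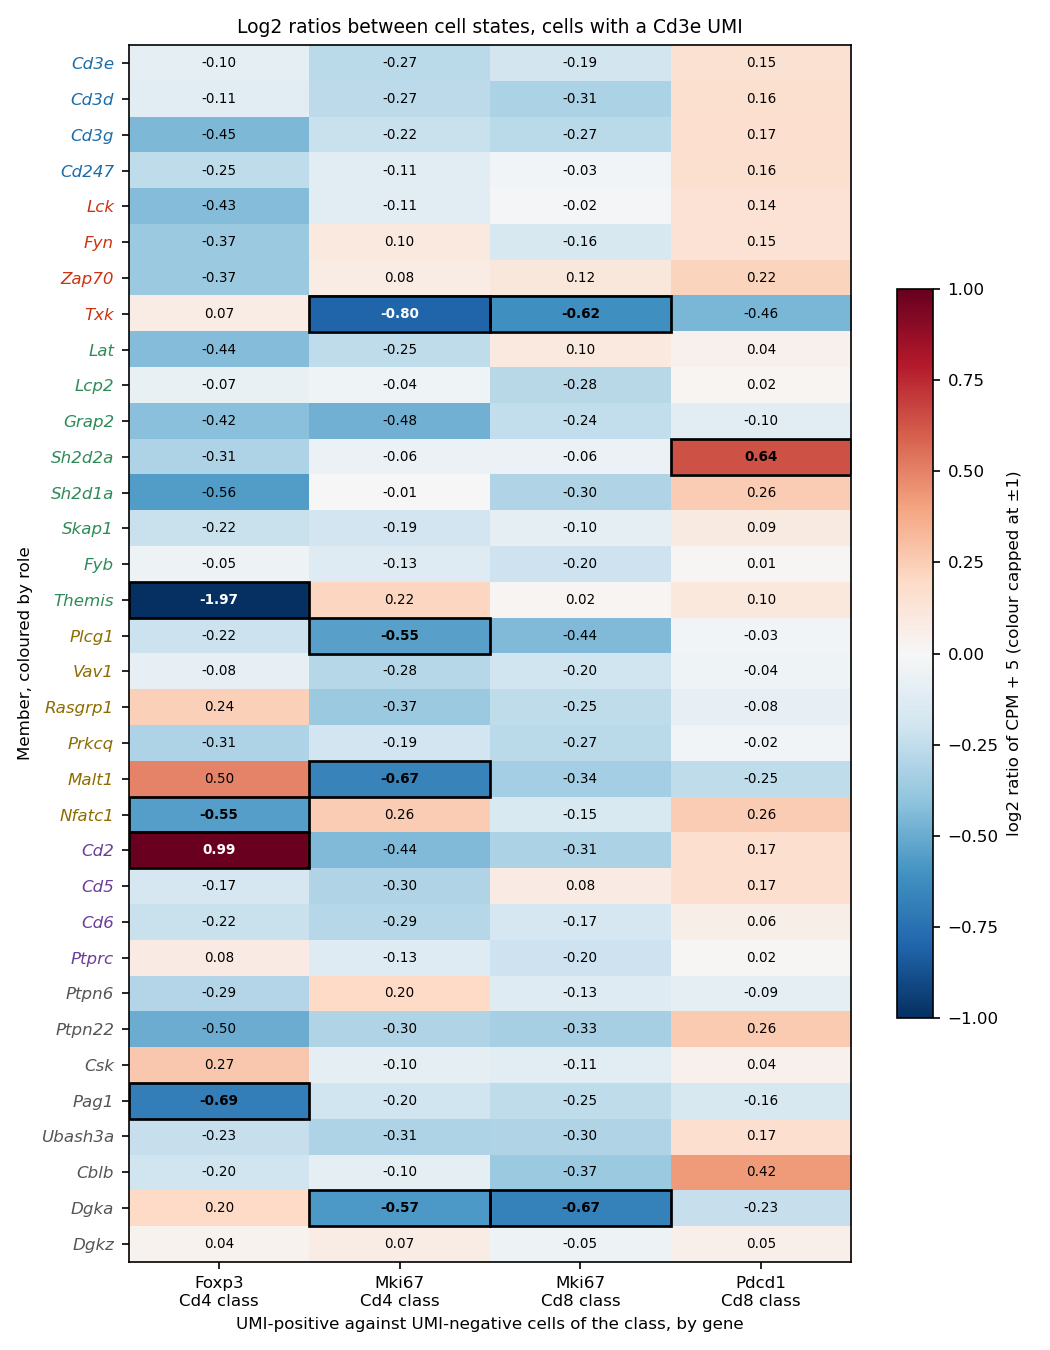
Log2 ratio of CPM plus 5 (colour and printed value) of each member (rows, coloured by role) between cells with and without a UMI of the state gene (columns). Boxes mark calls: Themis at -1.97 and Cd2 at 0.99, both in Foxp3-positive cells, are the extremes.

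A UMI of Mki67, a gene of dividing cells, marked 395 Cd4 class cells and 488 Cd8 class cells. In the Cd4 class Txk, Malt1, Dgka and Plcg1 were lower in Mki67-positive cells, 4 of 34 beside 17.9% of genes tested. In the Cd8 class Dgka and Txk were lower, 2 of 34 beside 20.2%. Txk was 1.86-fold lower in the Cd4 class (1.48 to 2.38; 29.8 against 55.5 CPM), although number 3 went the other way with 61.0 against 53.6 CPM. In the Cd8 class it was 1.58-fold lower (1.35 to 1.85), with 34.9, 65.5, 64.7 and 46.0 CPM in Mki67-positive and 61.9, 81.3, 105 and 95.2 CPM in Mki67-negative cells.

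Dgka, which removes diacylglycerol, was lower in Mki67-positive cells of both classes. It had 97.6, 95.6, 71.1 and 107 CPM in numbers 1 to 4 of Mki67-positive Cd4 class cells and 136, 158, 162 and 148 CPM in Mki67-negative ones, 1.51-fold lower (1.33 to 1.73) with no overlap. In the Cd8 class it had 68.1, 118, 96.0 and 104 CPM against 139, 160, 170 and 162 CPM, 1.62-fold lower (1.45 to 1.83), again with no overlap. Malt1 was 1.65-fold lower (1.36 to 2.02) and Plcg1 1.51-fold lower (47.6 against 71.8 CPM) in Mki67-positive Cd4 class cells. Mki67-positive cells were deeper, with a median of 6383 UMIs against 3369 in the Cd4 class and 7088.5 against 3841 in the Cd8 class. With cells thinned to 2000 UMIs, Dgka was called in both classes, whereas Malt1 in the Cd4 class and Txk in the Cd8 class were not. The members' median log2 ratio was -0.20 in both classes, beside -0.03 in the Cd4 class and -0.05 in the Cd8 class for all genes tested. With cells thinned it was -0.12 in the Cd4 class and -0.19 in the Cd8 class.

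Macrophage markers summed to 181 CPM in Mki67-positive and 526 CPM in Mki67-negative Cd8 class cells, 7 of 10 lower and none at 0. In the Cd4 class they summed to 398 and 490 CPM, and NK markers to 259 and 125 CPM, with 3 of 5 measured NK markers higher and 2 of 7 at 0 in Mki67-positive cells. Without cells carrying UMIs of macrophage, B cell or melanoma markers all of these members were called, and the part of NK markers was not tested. Of the induced genes Nr4a2 (18.5 against 9.78 CPM) and Myc (34.6 against 21.3 CPM) were higher and Egr1 (15.7 against 42.4 CPM) was lower in Mki67-positive Cd4 class cells. Of the 12 induced genes 7 were lower in Mki67-positive Cd8 class cells, namely Nr4a1, Nr4a3, Egr1, Egr2, Egr3, Myc and Rel, among them Rel at 39.7 against 64.1 CPM.

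A UMI of Pdcd1, the gene of the checkpoint protein PD-1, was present in 1161 of 2455 Cd8 class cells (47.3%). Sh2d2a was the only member called, 1 of 34 beside 7.52% of 10569 genes tested. Its level was 345, 378, 406 and 364 CPM in numbers 1 to 4 of Pdcd1-positive cells and 197, 264, 267 and 212 CPM in Pdcd1-negative cells, 1.57-fold higher (1.47 to 1.68) with no overlap. Cblb had a fold of 1.36 (1.20 to 1.55) and Txk 0.71 (0.63 to 0.81). All 4 CD3 and zeta chains had log2 ratios between 0.15 and 0.17. The members' median log2 ratio was 0.071, beside 0.014 for all genes tested. Without cells carrying UMIs of other cell types it was 0.025, beside 0.025 for all genes, and with cells lacking a Cd3e UMI included it was 0.252. The part of other cell types in the shift of the CD3 and zeta chains was not tested. Of the 12 induced genes 5 were higher, Nr4a1 at 3.78-fold (51.2 against 13.5 CPM), Egr3 at 2.95-fold, Nr4a2 at 2.73-fold, Nr4a3 at 2.03-fold and Egr2 at 1.74-fold, and Il2ra was lower (12.5 against 26.4 CPM). Macrophage markers summed to 185 CPM in Pdcd1-positive and 663 CPM in Pdcd1-negative cells, 9 of 10 lower, and Sh2d2a was called also without cells carrying UMIs of other cell types.

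Across the hashtag numbers of a single class the members spread about as much as other genes counted as deeply. Each number was set against the others pooled, and no member was called in any number of the Cd4 class, beside 5.06%, 5.45%, 4.16% and 3.22% of genes tested for numbers 1 to 4. In the Cd8 class 1 member was called, Txk in number 1, beside 7.74% of genes tested, and none in numbers 2 to 4, beside 2.90%, 6.60% and 3.93%. In number 1 of the Cd8 class 27 of 34 members had a log2 ratio below 0 and 7 above 0. The members' median there was -0.11, beside 0.02 for all genes tested. Without cells carrying UMIs of other cell types it was 0.03, beside 0.02, and the cause of the shift was not tested. The median ratio of the highest to the lowest number was 1.15 in the Cd4 class and 1.17 in the Cd8 class over the members, beside 1.19 and 1.16 over all genes with at least the UMIs of the least counted member. In the Cd4 class the widest was Themis, at 1.42 from 86.7 to 123 CPM, and the narrowest was Dgkz, at 1.02. In the Cd8 class the widest was Txk, at 1.73 from 53.2 CPM in number 1 to 91.8 CPM in number 3, and the narrowest was Themis, at 1.06. Txk in number 1 of the Cd8 class was 1.59-fold lower than in the other numbers (1.28 to 1.99; 53.2 against 84.4 CPM). Without cells carrying UMIs of other cell types it was 1.42-fold lower (1.14 to 1.79) and not called. In the Tdp classes, with between 9 and 117 cells a number, the spread was wider. The median ratio was 1.61 in Cd4-identity Tdp and 1.38 in Cd8-identity Tdp, beside 1.84 and 1.40 over genes counted as deeply. It was widest for Rasgrp1 in Cd4-identity Tdp, at 3.51, and for Zap70 in Cd8-identity Tdp, at 1.87.

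Cells with macrophage markers and no Cd3e UMI gave a measure of which members were also found in such cells. NK, B and dendritic cells were not set apart in this way. A low share here therefore does not show that a member is restricted to T cells. In 104 cells no Cd3e UMI but 5 or more macrophage marker UMIs were found, 97 of them in the Cd8 class, with a median of 6937.5 UMIs. Lck was found in 7.69% of them (3.38 to 14.6), Cd3d in 5.77% (2.15 to 12.1) and Themis in 1.92% (0.234 to 6.77). In contrast, Ptprc was found in 90.4% (83.0 to 95.3), Ptpn6 in 76.9% (67.6 to 84.6) and Fyb in 73.1% (63.5 to 81.3). At 2000 UMIs per cell, Lck was in 3.00% of these cells, 71.5% of Cd4 class cells and 76.4% of Cd8 class cells. Ptpn6 was in 44.0%, 17.9% and 22.4%, and Malt1 in 16.0%, 11.2% and 10.2%, so these members were not restricted to cells with a Cd3e UMI in this library. The 7 members called between the single classes were found in 1.00% to 11.0% of the macrophage-marker cells at this depth, with Fyn the highest.

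**Figure D4:**
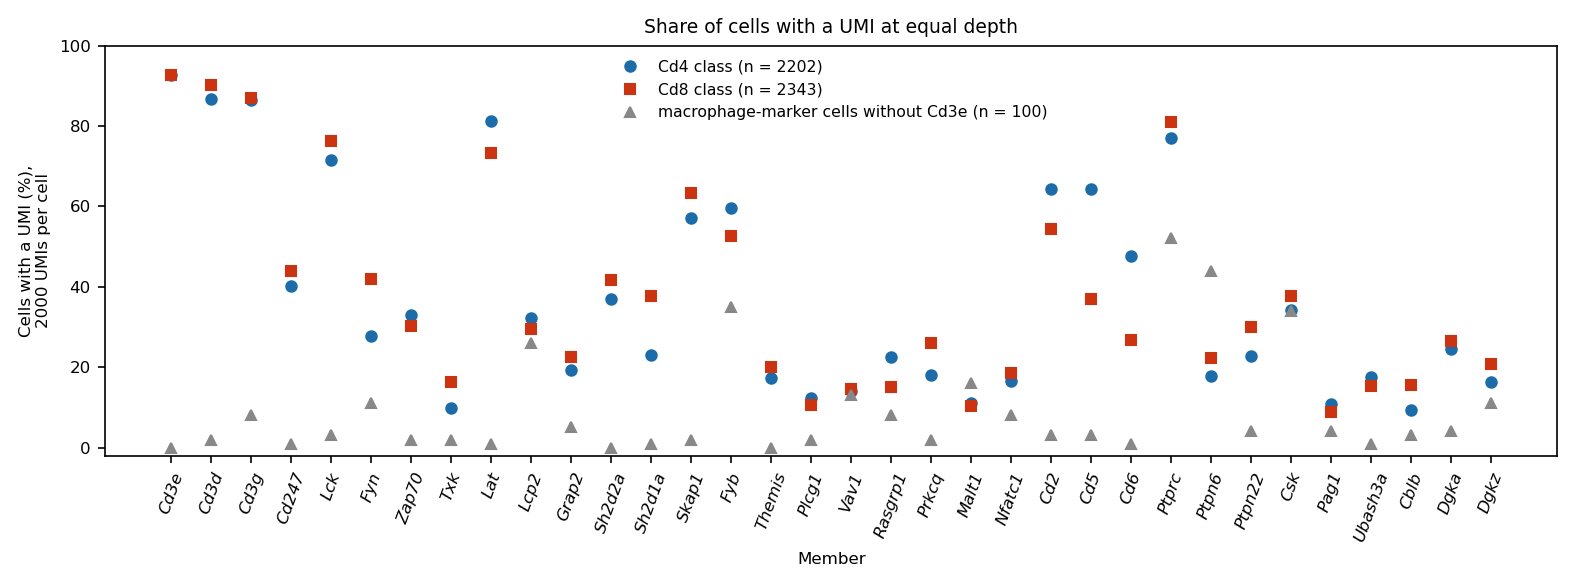
Share of cells with a UMI (y axis, %, cells thinned to 2000 UMIs) for each member (x axis) in the Cd4 class, the Cd8 class and macrophage-marker cells without a Cd3e UMI. The grey triangles lie near 0 for most members and reach 52.0% for Ptprc and 44.0% for Ptpn6.

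A deposited table of antibody counts lists CD5. The labels name hashtags but no other antibodies, so whether a CD5 antibody was added to the cells is not known here, and the whole table has 4315 counts over 138 antibodies, so it is sparse. In cells with a Cd3e UMI there were 134 CD5 counts in the 2395 Cd4 class cells and 54 in the 2455 Cd8 class cells, or 55.9 and 22.0 per 1000 cells. This is a 2.54-fold higher rate in the Cd4 class (1.84 to 3.56), and 2.16-fold (1.56 to 3.02) relative to the counts of all antibodies. Within hashtag numbers 1 to 4 the folds were 1.82 (0.957 to 3.83), 2.59 (1.44 to 4.85), 1.24 (0.357 to 3.49) and 3.20 (1.39 to 7.97), above 1 in all 4, with intervals that leave out 1 in numbers 2 and 4. The CD45 antibody, against the product of Ptprc, had a fold of 0.65 (0.48 to 0.88), and the CD3 antibody 0.92 (0.45 to 1.86).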

How the data were processed

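The authors deposited raw counts of UMIs per gene (14811 genes) and per antibody (138 antibodies) for 5564 cells of 1 library. The submitters' processing notes name the mm10 build, Seurat 3.2.3 and Cell Ranger 3.1.0, but not what each was used for. No source used here says how cells were filtered, how hashtags were assigned or how identities were called, and no doublet caller was run here. The hashtag and T cell receptor libraries were not analysed here, and 1 further split of the Cd8 class and 1 other pathway gene are not reported here.

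Per class, the UMIs of cells with at least 1 Cd3e UMI were added up: 10490983 in the Cd4 class, 566985 in Cd4-identity Tdp, 12358037 in the Cd8 class and 1877354 in Cd8-identity Tdp. CPM are relative to these sums, which leave out 117 receptor and immunoglobulin genes (0.325% of all UMIs). The 95% intervals were exact: Poisson for levels, conditional binomial for ratios and Clopper-Pearson for shares (scipy 1.17.1). Folds use no pseudocount, and log2 ratios use 5 CPM. Between classes, ratios within a hashtag number need 20 cells or more on each side. The calling step was tested on simulated data. Alternatives covered cells, thresholds, depth, scaling (TMM with edgeR 4.0.16) and hashtag numbers. The text names all 34 members and, of the other lists, some of the 3 highest and 3 lowest genes. Of the induced genes it names those called between classes and between states, and not those called between hashtag numbers. The members, lists, splits and alternatives were chosen with earlier results of these data known, and the promoters shown were chosen after the values were seen.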

Additional observations from a re-analysis of the deposited data

Results flagged for a closer look

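The antibody table lies outside the comparisons of gene counts. The 4 antibodies looked at here, named for CD45, CD5, CD3 and a TCR chain, had counts above those of the 3 mouse isotype controls. Counts of the other antibodies are not given here. No source used here says whether these controls match the 4 antibodies, so this does not show staining above background. The whole table held 4315 counts over 138 antibodies. The CD45 antibody had 222 counts, the CD5 antibody 202, the CD3 antibody 41 and the TCR chain antibody 16 over all cells, beside 2, 3 and 2 counts for the 3 mouse isotype controls. In the Cd4 class there were 114 CD5 antibody counts in 1908 cells with a Cd5 UMI and 20 in 487 cells without one, at median depths of 3658.5 and 3009 UMIs. In the Cd8 class there were 36 in 1438 cells with a Cd5 UMI and 18 in 1017 without one, at median depths of 4621 and 3712 UMIs. Whether these antibodies were added to the cells is not stated in the sources used here.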

How the results depend on the processing

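No paired analysis was possible because all values come from 1 library with no replicates. The 21 called member values of the class and state comparisons kept their sign under all 286 alternative values computed for them, and Txk in number 1 of the Cd8 class under its 3. Some of these alternatives, those of fold threshold, UMI minimum or pseudocount, cannot change a sign by their construction. A kept sign is also not a kept call, and the calls lost under an alternative are named above. The count of called members was within 1.5 times the reported one except as follows, and the cause was not tested beyond each alternative's construction. With the lower of the planned fold thresholds the counts were 14 for the single classes, 2 for Cd8-identity Tdp, 6 for Cd4-identity Tdp and 6 between the Tdp classes. The same threshold gave 14 for Foxp3, 8 and 6 for Mki67 in the Cd4 and Cd8 classes and 3 for Pdcd1. In hashtag numbers 1 to 4 of the Cd4 class it gave 1, 1, 2 and 1, and in numbers 1 and 3 of the Cd8 class 3 and 1. Of Cd4-identity Tdp, compared with its single class, 1 member was called in all cells, without cells with UMIs of other cell types, with Cd3d or Cd3g in place of Cd3e, without Mki67 cells, without cells with 2 Trbv genes and without hashtag number 4. In that comparison 2 were called with TMM scaling, without hashtag number 1, without number 2, thinned to 2000 UMIs and, as alternatives added after seeing the data, without Foxp3 cells and in cells of 3000 to 8000 UMIs. In cells of 3000 to 8000 UMIs the counts were 1 for Cd8-identity Tdp beside its single class (Cd247) and 6 between the Tdp classes. Thinned to 2000 UMIs, they were 1 (Pag1) and 6 in these comparisons, and 2 for Pdcd1. Without cells with UMIs of other cell types, no member was called in number 1 of the Cd8 class, a count of 0. The 91 Cd4-identity Tdp cells held 566985 UMIs in all, which limits the precision of their values.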
